A study of Mus musculus with 464 samples.

Results

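The 6 genes described here mark the fast transmitters of neurons: Gad1 and Gad2 for GABA, Slc6a5 for glycine, Slc32a1 for the packing of both, and Slc17a6 and Slc17a7 for glutamate. They were chosen by name from the 21973 genes of the deposited table, and all 6 were found in it. Their values were read in the single cells of the table that had 2000 or more genes above 0 and a share of mitochondrially encoded genes of 20% or less, which left out 6 cells and kept the rest. The cells are of the mouse embryonic stem cell line R1, whose medium held 15% serum replacement and the cytokine LIF at 1000 U/ml, which keeps such cells undifferentiated. Embryoid bodies, which are floating balls of differentiating cells, were made over 48 hours in hanging drops and then treated for 4 days with retinoic acid, at a dose that the labels give as 0.5 mM. All cells share this line and treatment, there is no untreated or other group, and no separate cultures are named. Comparisons are therefore between cells of 1 sample, and no test between conditions was possible.

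GABA is made from glutamate by 2 glutamate decarboxylases, the products of Gad1 and Gad2. Glycine neurons take up glycine through the plasma membrane transporter encoded by Slc6a5. Slc32a1 encodes the vesicular transporter that loads GABA and glycine into synaptic vesicles, so neurons of both kinds depend on it. Glutamate is loaded by the vesicular transporters encoded by Slc17a6 and Slc17a7. In the files' build, GRCm38, Gad1 lies at chr2:70561303-70602014, Gad2 at chr2:22621015-22693877 and Slc32a1 at chr2:158607260-158615747, with Slc6a5 at chr7:49906984-49963864, Slc17a6 at chr7:51621830-51671126 and Slc17a7 at chr7:45163921-45176139, per RefSeq. In the developing hindbrain and spinal cord, inhibitory interneurons can carry GABA and glycine together, Slc17a6 is the main glutamate transporter gene, and motor neurons use acetylcholine.

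The sequences before a listed start of each of 4 of these genes are printed because the genes differ in what the cells showed: Gad1 and Gad2 serve the same enzyme step and shared 34 of the 45 cells with Gad1 and of the 75 with Gad2, Slc6a5 had Gad2 beside it in 32 of its 49 cells, and Slc17a6 was the glutamate gene with the highest values. Each run is the 250 bases before a RefSeq start of assembly GRCm38.p6, the build also called mm10, on the plus strand and read 5′ to 3′. The windows are chr2:70561879-70562128 for Gad1, chr2:22622077-22622326 for Gad2, chr7:49910049-49910298 for the first of 2 listed starts of Slc6a5 and chr7:51621580-51621829 for the first of 2 listed starts of Slc17a6. Those of Gad1, Gad2 and Slc6a5 lie inside the gene spans given above, and that of Slc17a6 ends just before its span. Capitals mark matches, on either strand, to 6 motifs: the TATA box letters TATAAA, the E-box letters CAGCTG and the E-box letters CAGATG, the homeodomain letters TAATTA, the nuclear receptor letters AGGTCA, and the GC box letters GGGCGG.
Gad1: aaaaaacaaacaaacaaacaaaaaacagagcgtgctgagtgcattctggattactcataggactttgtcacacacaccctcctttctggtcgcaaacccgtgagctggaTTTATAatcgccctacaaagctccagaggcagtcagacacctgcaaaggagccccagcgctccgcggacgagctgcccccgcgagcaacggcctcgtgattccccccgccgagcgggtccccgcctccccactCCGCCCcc
Gad2: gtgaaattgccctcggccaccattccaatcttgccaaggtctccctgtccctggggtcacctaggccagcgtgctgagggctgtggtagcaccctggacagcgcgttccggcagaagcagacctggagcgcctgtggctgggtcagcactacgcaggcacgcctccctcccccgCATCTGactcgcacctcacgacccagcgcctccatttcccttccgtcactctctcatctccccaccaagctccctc
Slc6a5: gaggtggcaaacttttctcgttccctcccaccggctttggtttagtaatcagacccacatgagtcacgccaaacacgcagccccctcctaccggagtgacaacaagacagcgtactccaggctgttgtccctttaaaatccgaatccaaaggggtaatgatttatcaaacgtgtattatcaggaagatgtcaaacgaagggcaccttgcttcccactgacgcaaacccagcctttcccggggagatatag
Slc17a6: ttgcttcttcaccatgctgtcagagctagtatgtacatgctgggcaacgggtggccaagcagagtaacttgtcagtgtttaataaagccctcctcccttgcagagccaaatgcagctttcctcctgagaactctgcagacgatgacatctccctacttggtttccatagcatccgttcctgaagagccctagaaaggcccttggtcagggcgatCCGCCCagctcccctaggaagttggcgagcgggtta

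Between them the 4 printed windows held 4 matches. The Gad1 window had TATAAA near its middle and GGGCGG at 8 bases before the start, the Gad2 window had CAGATG at 76 bases, and the Slc17a6 window had GGGCGG at 36 bases. The printed Slc6a5 window had no match. All 6 genes matched the promoter table, with 8 windows in all. Of those not printed, the other window of Slc6a5 had CAGATG at 91 bases, the other window of Slc17a6 had CAGATG and, at 81 bases, TAATTA, the Slc17a7 window had GGGCGG at 70, 18 and 13 bases, of which the last 2 overlap by 1 base, and the Slc32a1 window had no match. Among 32851 windows of the same length, TATAAA was found in 12.4%, CAGCTG in 13%, CAGATG in 14.4%, TAATTA in 4.84%, AGGTCA in 14% and GGGCGG in 32.7%. The share of G and C bases was 58% for Gad1, 64% for Gad2, 50.4% for the printed window of Slc6a5 and 53.2% for that of Slc17a6, against a median of 52.4% over all windows. No binding or chromatin measurement was used here, so these matches describe letters only.

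Facts of the whole table that bear on every value are these. The deposited values were taken to be TPM, a gene's share of a cell's transcripts corrected for gene length, so levels of different genes can be set side by side. Sequencing depth per cell is unknown, and the number of genes above 0 was the only stand-in, with a median of 6742.5 and a range of 2059 to 10256. The columns form 2 sets by their names. For 55 columns of set 1 a near copy was found in set 2, with correlations of 0.946 to 0.99 across genes against at most 0.917 for any other 2 columns. These pairs were taken as repeat measurements, and counts over distinct cells use 1 column of each. Unless distinct cells or 1 set are named, counts and intervals take each kept column as a cell. Both columns of a pair are then counted. Detected means 1 TPM or more, and shares carry exact Clopper-Pearson 95% intervals in parentheses. These intervals cover counting error only and treat the columns as independent, which repeat columns are not.

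Gad2 was the most widely detected of the 6 genes. It was found in 75 cells, which is 16.4% of the kept cells (13.1 to 20.1). Slc6a5 followed with 49 cells or 10.7% (8.02 to 13.9) and Gad1 with 45 cells or 9.83% (7.26 to 12.9). The glutamate genes were found in fewer cells, Slc17a7 in 13 or 2.84% (1.52 to 4.80) and Slc17a6 in 10 or 2.18% (1.05 to 3.98). Slc32a1 was found in 8 cells or 1.75% (0.757 to 3.41). In this order the shares of Slc6a5 and Gad1 lie within each other's intervals, as do those of the last 3 genes, and the interval of Gad2 overlaps that of Slc6a5. At least 1 of the 6 genes was detected in 24.5% of the kept cells (20.6 to 28.7). The 4 inhibitory genes (Gad1, Gad2, Slc32a1 and Slc6a5) reached 22.1% of cells between them and the 2 glutamate genes 4.80%.

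To set the genes against neuronal maturity, cells were grouped by Nefl and Nefm, which encode neurofilament proteins, Mapt, which encodes the microtubule protein tau, and Stmn2, which encodes a regulator of microtubules in growing axons. The 65 cells with all 4 genes at 10 TPM or more are called neuron-high, and they make up 14.2% of the kept cells, with 28 in set 1 and 37 in set 2. The other cells comprise 95 endoderm-high cells (20.7%, at least 3 of Sox17, Gata4, Gata6 and Foxa2 at 10 TPM or more), progenitor-high cells (39.7%, Pax6 and Hes5 at 10 TPM or more with at most 1 of the 4 neuron genes) and remaining cells (25.3%). The bound is a line through a range and not a cell type. Of the neuron-high cells, 17 had the lowest of the 4 genes under 20 TPM, and 5 cells outside the group had all 4 at 5 TPM or more. All 12 listed neuron markers, which were not used to set the label, were at least 2-fold higher in neuron-high cells than in the other cells. Of 10 neural progenitor markers, 5 were at least 2-fold lower and 0 higher, but 6 were detected in at least 50% of neuron-high cells. Of Sox17, Gata4, Gata6 and Foxa2, 3 were at least 2-fold lower, but a neuron-high cell had them at 92.04, 26.3, 62.64 and 43.08 TPM. Tubb3, a neuronal tubulin gene, was detected in all 65 neuron-high cells with a mean of 663 TPM there and 167.2 TPM in the other cells. Of 6 astrocyte markers, 0 reached 10 detected cells over all kept cells, so they could not set the neuron-high cells apart. Of these markers 4, among them Gfap, had no value above the detection bound in any neuron-high cell.

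The 2 GABA enzyme genes were more often detected in neuron-high cells. Gad2 was detected in 34 of 65 neuron-high cells, which is 52.3% (39.5 to 64.9), against 41 of the other cells or 10.4% (7.59 to 13.9). In the detecting neuron-high cells its level ran from 1.35 to 192.1 TPM with a median of 26.1 TPM, and in the detecting other cells from 2.67 to 320.9 TPM with a median of 26.8 TPM. The 2 ranges overlap almost entirely, and the groups differ in how many cells carried Gad2 and hardly in the median level where it was found. Its mean over all cells was 18.03 TPM in neuron-high cells and 4.10 TPM in the other cells, a ratio of 4.39, with 4.08 in set 1, 4.55 in set 2 and 4.62 over distinct cells. Without the 2 highest neuron-high cells it was 3.42.

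Gad1 was detected in 20 neuron-high cells or 30.8% (19.9 to 43.4), against 25 other cells or 6.36% (4.16 to 9.25). Where detected, it ran from 1.55 to 112.7 TPM with a median of 24.03 TPM in neuron-high cells and from 1.17 to 231.1 TPM with a median of 18.1 TPM in other cells. Its mean was 8.96 TPM in neuron-high cells and 2.16 TPM in the other cells, a ratio of 4.15 (4.70 in set 1, 3.76 in set 2, and 2.80 without the 2 highest neuron-high cells). The single highest cell for each enzyme gene was not neuron-high. The cell with 231.1 TPM of Gad1 also had 170.7 TPM of Gad2, 23.1 TPM of Slc6a5, 224.8 TPM of Lhx1 and 763 TPM of Nefm, with Mapt at 0 and Stmn2 at 0.41 TPM. The cell with 320.9 TPM of Gad2 had Stmn2 at 400.5 TPM, with Mapt at 7.40 TPM and Nefl at 7.24 TPM, both below the bound. Each of these cells thus had 2 of the 4 neuron genes at 10 TPM or more.

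Slc32a1, the vesicular transporter gene that both kinds of inhibitory neuron need, was sparse and low. It was detected in 6 neuron-high cells or 9.23% (3.46 to 19.02) at 1.72, 2.19, 2.29, 2.42, 2.63 and 2.91 TPM, against 2 other cells at 2.73 and 5.81 TPM. No cell reached 10 TPM. It was found in 8 kept cells, under the minimum of 10 for a ratio, and in 0 of the endoderm-high and 0 of the progenitor-high cells, which allow shares of up to 3.16% and 1.65% when the limit is set at 3 counts of the total.

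Slc6a5, the glycine uptake gene, was detected in 21 neuron-high cells or 32.3% (21.2 to 45.1), against 28 other cells or 7.12% (4.79 to 10.1). Its levels were lower than those of the GABA enzyme genes, with a median of 3.0 TPM and a highest value of 54.3 TPM in the detecting neuron-high cells, against a median of 5.53 TPM and a highest value of 205.7 TPM in the detecting other cells. The mean was 2.90 TPM in neuron-high cells and 1.59 TPM in the other cells, a ratio of 1.83 that did not reach 2-fold, with 1.38 in set 1 and 3.22 in set 2. Single cells move this ratio in both directions. The highest other cell had 205.7 TPM of Slc6a5 and 278.1 TPM of Mapt, with Nefl, Nefm, Stmn2 and Tubb3 at 0, it had 2059 genes above 0, the fewest of any kept cell, and it held 25.3% of all Slc6a5 signal. Without it the ratio was 2.73. The highest neuron-high cell held 28.8% of the Slc6a5 signal of the neuron-high group, and without the 2 highest neuron-high cells the ratio was 1.07.

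The glutamate genes were rarer in both groups. Slc17a6 was detected in 8 neuron-high cells or 12.3% (5.47 to 22.8) at 1.04, 1.09, 1.21, 3.02, 21.3, 21.9, 109.8 and 117.3 TPM, against 2 other cells at 5.89 and 21 TPM. The 2 highest cells held 82.1% of the Slc17a6 signal of the neuron-high group. The mean was 4.26 TPM in neuron-high cells and 0.0712 TPM in the other cells, a ratio of 59.7, with 37.8 in set 1, 142.04 in set 2, 53.3 over distinct cells and 11.04 without those 2 cells. The mean of the other cells rests on very few cells too, and was 0.0179 TPM without the cell at 21 TPM. Slc17a7 was detected in 7 neuron-high cells or 10.8% (4.44 to 20.9) at 1.81, 2.49, 2.83, 5.66, 12.2, 12.2 and 12.8 TPM, against 6 other cells or 1.53% (0.562 to 3.29) with a highest value of 18.4 TPM. The 2 highest other columns, at 18.2 and 18.4 TPM, are a repeat pair and held 50.5% of the signal of the other cells. Over distinct cells Slc17a7 was detected in 5 of 340 other cells. Its mean was 0.769 TPM in neuron-high cells and 0.185 TPM in the other cells, a ratio of 4.16, with 1.78 in set 1, 5.49 in set 2 and 2.14 without the 2 highest neuron-high cells. Over distinct cells its means were 0.794 TPM in neuron-high and 0.159 TPM in other cells.

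**Figure D1:**
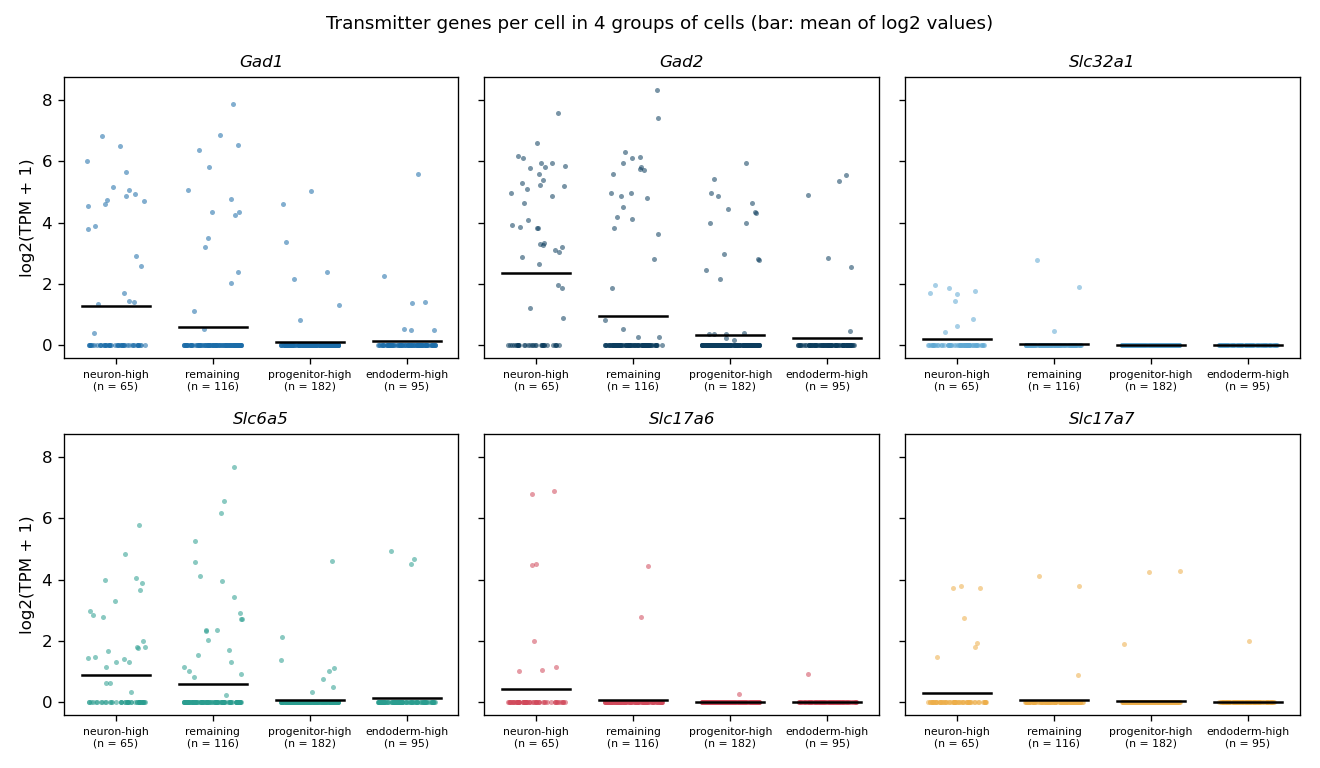
Each point is 1 kept cell, with log2(TPM + 1) of a gene on the vertical axis and the neuron-high, remaining, progenitor-high and endoderm-high cells side by side; the bar is the mean of the log2 values. Most cells lie at 0 in every panel, Gad2 has the most cells above 0 among the 65 neuron-high cells, and the highest values of Gad1, Gad2 and Slc6a5 lie in remaining cells.

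Of the 5 genes detected in at least 10 cells, 4 had a mean at least 2-fold higher in neuron-high cells than in the other cells and 0 at least 2-fold lower. Over all 13756 genes tested, 13% were at least 2-fold higher and 17.5% at least 2-fold lower. Over distinct cells the counts were again 4 and 0, beside 12.9% and 17.1% of the tested genes. The median log2 ratio of means was 2.06 for the 5 genes and -0.04 for all tested genes. Slc17a6 and Slc17a7 reached the minimum of 10 cells only with their neuron-high cells, 8 of 10 and 7 of 13. The minimum thus favoured a higher call for these 2 genes, and the count of 4 and the median include them. Neuron-high cells had a median of 7179 genes above 0, against 6660 in the other cells, and the part of this gap in the detected shares was not tested.

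Detection also followed the number of the 4 neuron genes at 10 TPM or more, from none to all. Among the cells with 0 of them, Gad2 was detected in 2.25% (0.735 to 5.18). Among the cells with 1 it was detected in 12.2% (6.82 to 19.6), among the 21 with 2 in 38.1% (18.1 to 61.6), among the 35 with 3 in 40% (23.9 to 57.9) and among the 65 with 4 in 52.3%. The intervals of the last 3 steps overlap, so the order among them is not resolved. Gad1 had 0.901%, 7.83%, 33.3%, 20% and 30.8% over the same steps, and Slc6a5 had 1.80%, 7.83%, 33.3%, 22.9% and 32.3%. At 2 neuron genes the intervals were 14.6 to 56.97 for both, which cover the shares of both genes at 3 and at 4 neuron genes. Of the cells with 2, Gad1 was detected in 5 of 9 in set 1 and 2 of 12 in set 2, and Slc6a5 in 4 of 17 distinct cells or 23.5%. Any glutamate gene was detected in 0.450%, 4.35%, 0%, 5.71% and 21.5%, where the step with 2 neuron genes is 0 of 21 cells. The median number of genes per cell over the steps was 6619.5, 6794, 5900, 6785 and 7179, and its part in these shares was not tested.

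**Figure D2:**
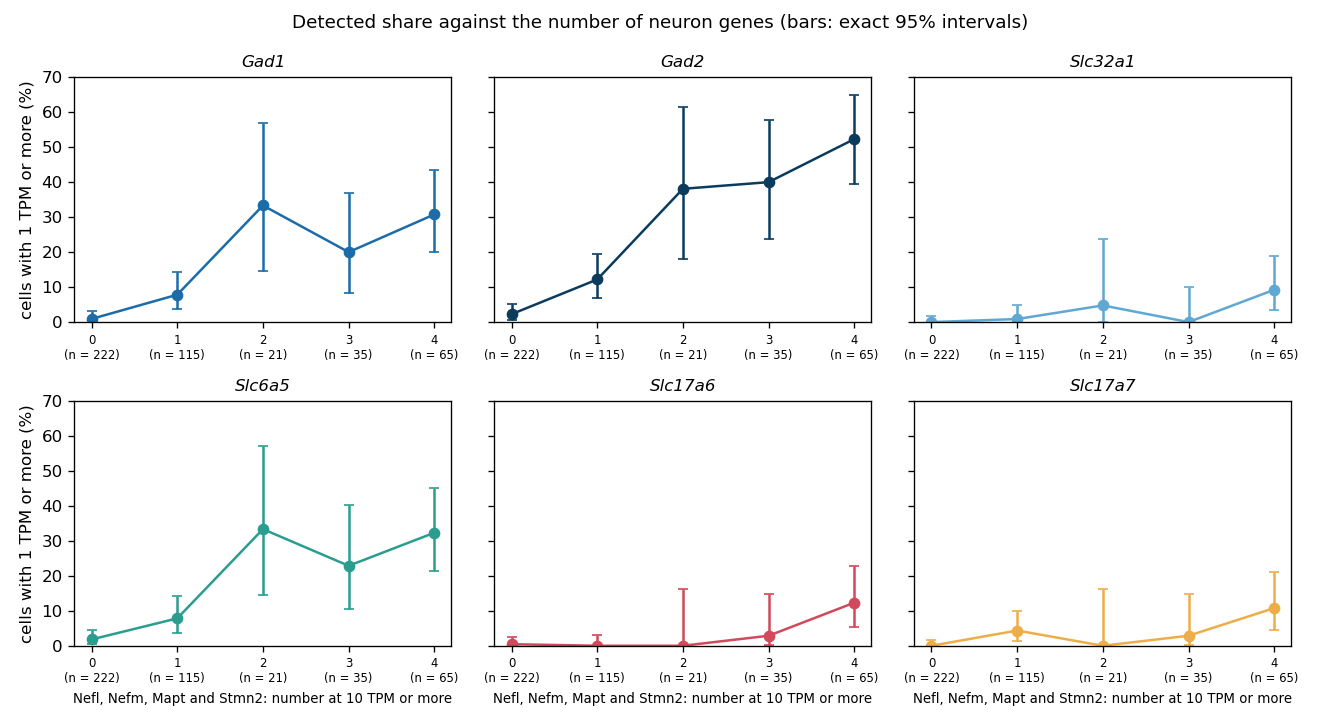
Each panel gives, for 1 gene, the share of cells with 1 TPM or more against the number of Nefl, Nefm, Mapt and Stmn2 at 10 TPM or more, with exact 95% intervals as bars and the number of cells under each step. Gad2 climbs to 52.3% at 4 neuron genes, Gad1 and Slc6a5 reach 33.3% at 2, and Slc17a6 has its highest share, 12.3%, at 4.

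By rule, progenitor-high cells have at most 1 neuron gene at 10 TPM or more. Cells with more than 1 that are neither neuron-high nor endoderm-high therefore count as remaining cells. With the groups cut in this way, detection outside the neuron-high group was highest in the remaining cells. Of these cells, 36 or 31.03% had at least 1 of the 6 genes, and 34 of the 36 had at least 1 neuron gene at 10 TPM or more, while over all remaining cells 77 had at least 1 and 39 had none. Of the progenitor-high cells, 25 had at least 1 of the 6 genes, and 16 of the 25 had a neuron gene at 10 TPM or more, so 9 had none. Gad2 was detected in 18.1% (11.6 to 26.3) of the remaining cells, in 8.24% (4.69 to 13.2) of progenitor-high cells and in 5.26% (1.73 to 11.9) of endoderm-high cells. Remaining cells held 50.2% of all Gad1 signal and 63.4% of all Slc6a5 signal, although they are 25.3% of the cells. A few columns carry much of these shares, for Gad1 those at 231.1, 115.4 and 91.5 TPM and for Slc6a5 those at 205.7, 94.3 and 70.7 TPM. The columns at 115.4 and 91.5 TPM of Gad1 are a repeat pair and are the same ones as those at 70.7 and 94.3 TPM of Slc6a5. The endoderm-high cells served as a comparison of another lineage. Of the 95 endoderm-high cells, 8 columns had at least 1 of them, and 7 of the 8 also had a neuron gene at 10 TPM or more, as did 35 of the 95. One endoderm-high repeat pair had 45.6 and 40.4 TPM of Gad2 and 21.97 and 29.3 TPM of Slc6a5 in its 2 columns. Doublets, meaning 2 cells captured together, were not called because callers need counts, and their part in such cells was not tested.

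Within the neuron-high cells, most cells with Gad1 or Slc6a5 also had Gad2. Of the 20 cells with Gad1, 18 also had Gad2, which is 90% of the Gad1 cells and 52.9% of the Gad2 cells, while Gad2 was found in 35.6% of the neuron-high cells without Gad1. Of the 21 cells with Slc6a5, 19 also had Gad2, which is 90.5% of the Slc6a5 cells and 55.9% of the Gad2 cells. Slc6a5 was found in 6.45% of the neuron-high cells without Gad2. Gad1 and Slc6a5 shared 11 cells. Of the 6 cells with Slc32a1, 5 had Gad1 and 4 had Gad2. Conversely, of the 36 neuron-high cells with Gad1 or Gad2, Slc32a1 was detected in 5, and of the 21 with Slc6a5 it was detected in 3.

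Grouped by transmitter, 13 neuron-high cells had a GABA gene (Gad1 or Gad2) alone, 14 had GABA and glycine genes, and 1 had the glycine gene alone. A glutamate gene alone was found in 5 cells, GABA and glutamate genes in 3, and genes of all 3 transmitters in 6. Another 23 cells had none of these 5 genes, and 1 of those had Slc32a1. So 38 cells or 58.5% (45.6 to 70.6) had an inhibitory gene, 14 cells or 21.5% (12.3 to 33.5) a glutamate gene, and 9 cells or 13.8% (6.53 to 24.7) both kinds. Among the other cells these counts were 63, 8 and 2.

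Neuron-high cells with a glutamate gene were few. Of the 7 with Slc17a7, 6 had Gad2, and of the 8 with Slc17a6, 4 had Gad2, beside 34 of all 65 neuron-high cells, and these counts are too small to set the 2 genes apart. Over the 9 cells with both kinds Gad2 ran from 1.35 to 70.99 TPM. In the cell with 117.3 TPM of Slc17a6 the other 5 genes were at 0, and the cell with 109.8 TPM had 8.29 TPM of Gad2, 1.69 TPM of Slc6a5 and 1.81 TPM of Slc17a7. That cell was the only neuron-high cell with both glutamate genes, and Slc32a1 was detected in 0 of the 14 neuron-high cells with either of them, beside 6 of all 65. It was above 0 but under the detection bound in 2 of the 14, at 0.36 and 0.54 TPM. The 9 cells with both kinds had a median of 8192 genes above 0, against 7179 in all neuron-high cells and 6411 in the 22 with none of the 6 genes. Whether gene number or doublets enter this overlap was not tested.

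**Figure D3:**
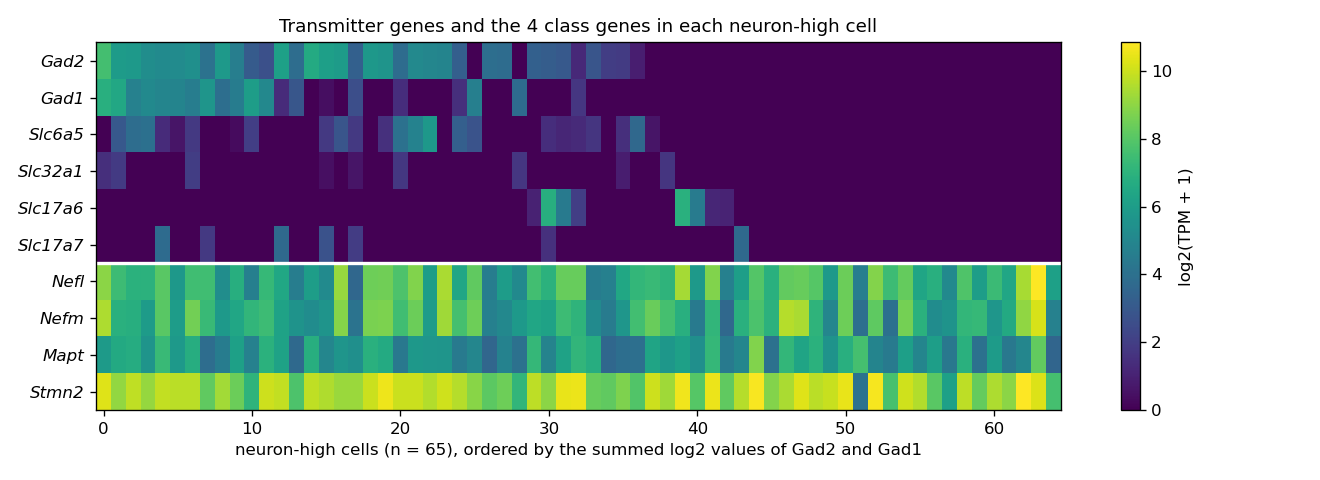
Columns are the 65 neuron-high cells ordered by the summed log2 values of Gad2 and Gad1, rows are the 6 transmitter genes above the white line and the 4 class genes below it, and colour is log2(TPM + 1). Gad1 and most Slc6a5 cells lie among the Gad2 cells at the left, the 2 highest Slc17a6 cells stand apart, and 22 cells have none of the 6 genes at 1 TPM or more although their class genes are at 10 TPM or more.

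Repeat columns show how often detection itself repeats, in pairs that were picked for a high correlation across genes. They say little about the neuron-high group, which fell only from 65 to 63 columns over distinct cells. Among neuron-high pairs only Gad2 was detected, at 14.31 TPM in set 1 and 2.95 TPM in set 2. Over the 55 pairs and 6 genes there were 330 comparisons, of which 310 had the gene undetected in both columns, 16 detected in both and 4 detected in 1. Gad2 was detected in both columns of all 8 pairs where it was found at all, with a median difference of 0.44 and a largest difference of 2.15 on the log2(TPM + 1) scale. Gad1 was found in both columns of 3 pairs and in 1 column of another, at 18.1 TPM in set 1 and 0 in set 2. Slc6a5 was found in both columns of 4 pairs and in 1 column of 2. Slc32a1 was found once, at 2.73 TPM in set 2 and 0 in set 1. If each pair is 1 cell, which the labels do not state, the pairs bear on the measurement after capture and not on loss of RNA in the capture.

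**Figure D4:**
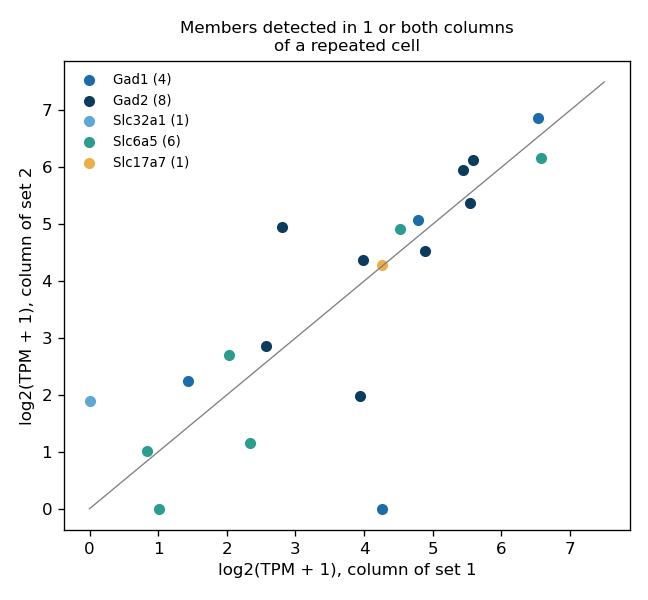
Each point is a gene in a repeated cell, with log2(TPM + 1) of the set 1 column on the horizontal axis and of the set 2 column on the vertical axis; the line marks equal values and the legend gives the number of points. Of 20 points, 16 were detected in both columns, and Gad1 at 18.1 TPM in set 1 and 0 in set 2 is the largest value lost.

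Some of the listed transcription factors differed in detected share between the neuron-high cells with Gad2 and those without it. Lhx5, a LIM homeodomain gene of several interneuron classes, was detected in 31 of 34 cells with Gad2, which is 91.2% (76.3 to 98.1), against 7 of 31 cells without it or 22.6% (9.59 to 41.1). The shares were 100% against 21.4% in set 1 and 85% against 23.5% in set 2. Lhx5, Lhx1 and Pax2 were picked as the listed factors with the widest gap of the same sign in both sets. Neither the gap nor its direction is therefore separate support. Lhx1, a close relative of Lhx5, was detected in 32 of 34 against 16 of 31. Pax2, a gene of inhibitory interneurons of the hindbrain and spinal cord, was detected in 16 of 34 against 3 of 31. Cells with Gad2 had a median of 7502.5 genes above 0, against 6644 in cells without it, and its part in these shares was not tested. Among listed factors named after their values were seen, Ebf1 was detected in 85.3% of cells with Gad2 and 87.1% of cells without, Isl1 in 26.5% and 25.8%, and Lhx4, a gene of motor neurons and V2 interneurons, in 17.6% and 41.9%.

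For Gad1 the 3 factors with the widest gap were Lhx5, in 18 of 20 cells with Gad1 against 20 of 45 without, En1, a gene of V1 inhibitory interneurons of the spinal cord and of the midbrain and hindbrain border, in 10 of 20 against 3 of 45, and Pax5, in 11 of 20 against 7 of 45. For Slc6a5 they were Lhx5, in 19 of 21 cells with Slc6a5 against 19 of 44 without, Lhx1, in 20 of 21 against 28 of 44, and Lhx4, which went the other way, in 2 of 21 against 17 of 44. The groups of Gad1, Gad2 and Slc6a5 share many cells, so these are not separate results.

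**Figure D5:**
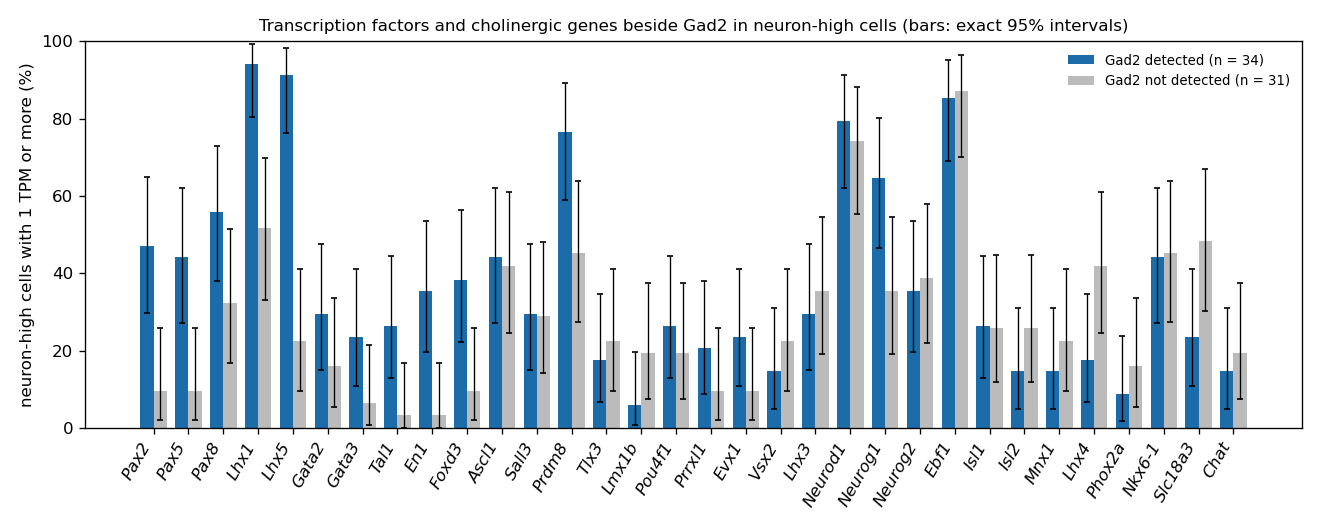
Bars give the share of neuron-high cells with 1 TPM or more of each listed factor, and of 2 cholinergic genes at the right, in the 34 cells with Gad2 and the 31 without it, with exact 95% intervals; factors of the 3 lists detected in at least 10% of the neuron-high cells are shown. The widest gap is Lhx5, at 91.2% against 22.6%, while Lhx4 and Slc18a3 are lower beside Gad2.

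Other transmitter genes were found in neuron-high cells both without and with the 6 genes. Counting Chat, Slc18a3, Slc5a7, Th, Dbh, Slc18a2, Tph2, Slc6a4 and Hdc together, 18 of the 22 cells without the 6 genes had at least 1, as did 33 of the 43 with at least 1 of them. Slc18a3, the vesicular acetylcholine transporter gene, was detected in 12 of the 22 cells or 54.5% (32.2 to 75.6), against 11 of the 43 with at least 1 of the 6 genes or 25.6% (13.5 to 41.2). The gap was smaller for Chat, in 5 of 22 against 6 of 43, and Slc5a7 was detected in 1 of 22 against 3 of 43. Th, which encodes the first enzyme of catecholamine synthesis, was detected in 10 of 22 against 17 of 43. Slc18a2, the vesicular monoamine transporter gene, was detected in 7 of 22 against 23 of 43. Lhx5 was detected in 2 of the 22 against 36 of the 43. Beside Gad2, Slc18a3 was detected in 8 of 34 cells with Gad2 and 15 of 31 without, and Slc18a2 in 22 of 34 and 8 of 31.

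The genes whose values across cells were most like those of Gad2 were Slc30a3, a vesicular zinc transporter gene, with a Pearson correlation of log2(TPM + 1) of 0.611 over the cells of set 1 and 0.693 over the cells of set 2 that repeat none of set 1, then Lamp5, Pax2, Lhx1 and Lhx5. Gad1 was also most like Slc30a3, at 0.506 and 0.521, then Gad2, at 0.495 and 0.602, Pax8, Lhx5 and Lamp5. Slc6a5 was most like Gad2, at 0.447 and 0.446, then Lhx5, Lhx1, Nrxn3 and Map2. The glutamate genes named none of these. Slc17a6 was most like Magel2, at 0.552 and 0.518, then Skor1, Synpr, Tnik and Gpr22. Its correlation with Gad1 was -0.03 in set 1 and -0.04 in set 2, and with Gad2 -0.03 and 0.08. Slc17a7 was most like Nell1, at 0.405 and 0.479. Gad2 ranked 76 of 13751 genes in likeness to Slc17a7, at 0.179 and 0.165. Slc32a1 was most like Psd2, at 0.351 and 0.470. These correlations describe cells for which no separate cultures are named, which share their zeros and differ in gene number, and those of Slc32a1, Slc17a6 and Slc17a7 rest on 8, 10 and 13 detecting cells.

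Genes that receive or clear the transmitters differed from list to list, by the same size rule and with 13% and 17.5% as the background. Among GABA receptor genes, Gabbr1, a GABA-B receptor gene, averaged 7.87 TPM in neuron-high cells and 2.49 TPM in the other cells. Gabrg1 was listed at 0 in all neuron-high cells and was detected in 14 other cells. Of 13 tested glutamate receptor genes 9 were at least 2-fold higher in neuron-high cells and 1, Grin2b, was lower. Of the 9, 6 were higher in both column sets. Gria2, an AMPA receptor subunit gene, averaged 16.2 TPM in neuron-high cells and 1.73 TPM in the other cells, and Grm2, a metabotropic receptor gene, 9.84 TPM in neuron-high cells and 1.98 TPM in the other cells. The next by level were Gria3, with a ratio of 2.75, and Grik2, with 5.18.

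Of 6 tested glycine genes 3 were higher, of which 1 in both column sets, and 1 was lower. Gphn, which encodes the anchoring protein gephyrin, averaged 23.8 TPM in neuron-high cells and 10.96 TPM in the other cells, and Slc6a9, another glycine uptake gene, 1.24 TPM in neuron-high cells and 0.614 TPM in the other cells, a ratio of 2.02 that was 1.92 over distinct cells. Glra3, a glycine receptor gene, had a ratio of 32.4 that rests on 2 neuron-high cells, with 0.505 in set 2. Glra1, a glycine receptor gene too, averaged 0.341 TPM in neuron-high cells and 1.57 TPM in the other cells. Among genes of GABA uptake and breakdown, Abat, which encodes GABA transaminase, had a ratio of 2.83, and Slc6a13 had a ratio of 0.464, which was 0.57 over distinct cells, short of 2-fold.

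Of 13 tested genes of glutamate supply and uptake 0 were higher and 2 were lower. Slc1a3, the glutamate uptake gene of radial glia and astrocytes, was detected in 16.9% of neuron-high cells, with a mean of 2.80 TPM, and in 49.4% of the other cells, with a mean of 16.8 TPM, and Slc1a1 had a ratio of 0.133. Of the chloride transporter genes, Slc12a5, whose product lowers chloride in maturing neurons, averaged 6.00 TPM in neuron-high cells and 0.751 TPM in the other cells, a ratio of 7.99, and Slc12a2 did not reach 2-fold. Vesicle release genes were higher most broadly, 17 of 19 tested with 0 lower, and 14 were higher in both column sets. Among them Rab3a averaged 155.5 TPM in neuron-high cells and 21.2 TPM in the other cells, and Snap25 114.4 TPM in neuron-high cells and 5.96 TPM in the other cells. Slc32a1, Slc17a6 and Slc17a7, which fill the vesicles, averaged 0.244, 4.26 and 0.769 TPM in the same neuron-high cells.

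Among listed transcription factors of inhibitory interneurons, 10 of 16 tested were higher and 2 were lower, led in level by Pax8, Lhx5 and Lhx1 at 33.4, 31.9 and 31.1 TPM in neuron-high cells, against 5.09, 10.05 and 10.2 TPM in the other cells. Ptf1a, a progenitor gene of inhibitory lineages, was listed at 0 in all neuron-high cells and was detected in 20 other cells. Among those of excitatory neurons 8 of 12 were higher and 0 lower, with Neurod1 in 50 neuron-high cells. Among those of motor neurons 6 of 7 were higher and 1, the progenitor gene Olig2, was lower. Higher in both column sets were 9 of the 10 inhibitory, all 8 excitatory and 4 of the 6 motor neuron factors. Of the genes of other transmitters 5 of 6 were higher, all 5 in both column sets, and 1, Ddc, was lower. Th averaged 61.9 TPM in neuron-high cells and 2.95 TPM in the other cells, and Slc18a3 29.4 TPM in neuron-high cells and 1.69 TPM in the other cells.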

How the data were processed

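Single cells of the R1 line were caught in a Fluidigm C1, copied with SMART-Seq V4 and sequenced from Nextera XT libraries, per the labels' protocols. STAR, RSEM and mm10 are named without versions in the submitters' processing notes. The authors deposited 1 table with no stated unit, taken to be TPM: the values are decimals, and the listed genes of a kept cell sum to 57.1% to 95.2% of the total that TPM assigns to a cell. Its header line was split from the values of the first gene, which followed on the same line. The names of columns match no sample title, all samples share 1 group, and 0 columns of other samples were set aside.

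Cells with under 2000 genes above 0 or over 20% mitochondrial share were left out (6 of 464 cells, of which 1 had Gad1, Gad2 and Slc6a5 at 304, 102 and 26.0 TPM), which kept 458 cells, 65 neuron-high and 393 others, with 224 in set 1 and 234 in set 2 and 403 distinct. Detection was 1 TPM or more. Fold is the ratio of mean TPM in neuron-high over other cells, for genes detected in at least 10 kept cells, called at 2-fold. With 1 group and no replicate cultures named there is no test, p-value or standard error. Correlations use log2(TPM + 1). Columns correlated above 0.93 across the sets were treated as repeats of a cell; 53 of the 55 pairs fell in the same group of cells. All 6 genes are described. From each list the text names up to 4 higher genes by mean TPM in neuron-high cells and up to 2 lower ones by mean TPM in other cells; factors are the 3 with the widest gap of the same sign in both sets, and like genes the 5 with the highest lower correlation of the sets. Genes named beside these (Ebf1, Isl1, and Lhx4, Slc18a2 and Slc18a3 beside Gad2) were chosen after their values were seen. Some listed genes are not reported here. The genes described, the lists and the group bounds were chosen with earlier results of these data known. Sequences and positions are from RefSeq (GRCm38.p6). Python 3.11.15, numpy 2.4.6, pandas 2.3.3 and scipy 1.17.1 were used. The 2-fold rule was tested on values of these cells that were shuffled within each gene, with known changes placed in them. That test used only genes detected in more cells than any of the 6 genes.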

Additional observations from a re-analysis of the deposited data

How the results depend on the processing

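Depth is unknown and cells could not be thinned, so detected shares cannot be compared at equal depth. When detection meant 10 TPM or more, or a place among a cell's 4000 highest genes, the inhibitory share was 43.1% and 32.3% of neuron-high cells and 15.1% and 10.9% of all kept cells, against 58.5% and 22.1% at 1 TPM. The glutamate share was 10.8% and 4.62% of neuron-high cells and 2.62% and 0.873% of all kept cells, and cells with both kinds were 3.08% and 0% of neuron-high cells. The number of genes at least 2-fold higher was 2 in column set 1 alone, where fewer genes reached 10 cells, and 2 as a difference of mean log2(TPM + 1), against 4. The ratio of Slc17a7 was 1.78 in set 1, under 2-fold, and that of Slc6a5 passed 2-fold in 6 settings. Of the main results under all settings tried, 80 values stayed within their interval or 1.5 times the count, and 12, given above, did not. The Slc6a5 ratio without the cell of 2059 genes, 2.73, was an alternative chosen after seeing the data. No paired analysis was possible because there is 1 group.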
